A study of Mus musculus with 32 samples.

Results

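The genes described here encode cytochrome P450 enzymes and UDP-glucuronosyltransferases that oxidize or conjugate drugs, steroids, fatty acids and other small molecules. They were taken as the RefSeq protein-coding genes on mouse autosomes (build GRCm38) whose symbols start with Cyp2, Cyp3a, Cyp4 or Ugt2. The rule found 96 of 20665 autosomal protein-coding genes: 48 of the CYP2 family, 9 of CYP3A, 20 of CYP4, 10 of UGT2, and 9 genes of other P450 families that share only the letters of the prefix (Cyp20a1, Cyp21a1, Cyp24a1, Cyp26a1, Cyp26b1, Cyp26c1, Cyp27a1, Cyp27b1 and Cyp46a1). Members no more than 200 kb apart were joined into clusters of at least 3. This gave 9 clusters with 76 members and left 20 members outside clusters.

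H3K9me3, trimethylation of lysine 9 of histone H3, was mapped by ChIP-seq in testicular germ cells of male mice that carried Mvh-Venus in both genotypes, a transgene that makes germ cells fluorescent. At 4 stages, E13.5 and E16.5 of embryonic development and P0 and P3 after birth (numbers are days), animals were either heterozygous for Morc1 (Morc1 (+/-), here het) or homozygous for its loss (Morc1 (-/-), here KO). No wild-type group was among the samples, so het was the reference. Each of the 8 groups had 2 H3K9me3 samples but 1 deposited peak list, which leaves no replicate error and no p-value for any difference given here. The 16 histone H3 samples were not used here. Whether animals were pooled is not given in the sources used here, and the lists hold no expression values with which the germ cell label or the Morc1 genotype could be checked.

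P450 enzymes of the CYP2, CYP3A and CYP4 families are membrane proteins of the endoplasmic reticulum, most abundant in liver, intestine, kidney and lung, where they add oxygen to their substrates. UGT2 enzymes attach glucuronic acid to the products, which makes them easier to excrete. Many of these genes lie in tandem arrays that grew by duplication and hold near-identical copies and pseudogenes. H3K9me3 is a mark of heterochromatin laid down over repeats and over some families of tandem genes. MORC1 is a nuclear ATPase of male germ cells known for its part in silencing transposons while DNA methylation is re-established.

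Sequence upstream of 7 members is shown first, to set neighbours in the same array that differ in coverage beside each other. The stretches come from the RefSeq promoter table of GRCm38.p6 and run 5′ to 3′ on the gene's own strand, ending where the annotated gene begins. Capitals mark matches to a core promoter motif, spelled TATAAA, and to a motif that many nuclear receptors bind, spelled AGGTCA. Both strands were searched for both motifs. Counted from the annotated gene, TATAAA began at position -234 in Cyp3a11, -122 in Cyp3a41a and -120 in Cyp3a41b. These are matches of letters, and whether they act in the promoter was not tested. Cyp3a11 (chr5:145879855-145880104, minus strand) and Cyp2c29 (chr19:39286835-39287043, plus strand) had their start sites inside a peak in 8 of 8 lists.
Cyp3a11: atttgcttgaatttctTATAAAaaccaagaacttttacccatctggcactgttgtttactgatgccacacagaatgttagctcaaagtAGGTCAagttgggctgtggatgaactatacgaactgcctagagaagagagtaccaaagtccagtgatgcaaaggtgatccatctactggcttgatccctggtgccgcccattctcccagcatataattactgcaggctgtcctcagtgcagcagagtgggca
Cyp2c29: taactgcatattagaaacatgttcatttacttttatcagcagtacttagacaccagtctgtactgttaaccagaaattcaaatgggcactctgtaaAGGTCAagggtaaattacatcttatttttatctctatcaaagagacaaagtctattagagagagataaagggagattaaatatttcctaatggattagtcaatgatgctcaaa
Cyp3a41a (chr5:145720137-145720386, minus strand) and Cyp3a41b (chr5:145584733-145584980, minus strand) lay in the same array as Cyp3a11 and were almost free of peaks.
Cyp3a41a: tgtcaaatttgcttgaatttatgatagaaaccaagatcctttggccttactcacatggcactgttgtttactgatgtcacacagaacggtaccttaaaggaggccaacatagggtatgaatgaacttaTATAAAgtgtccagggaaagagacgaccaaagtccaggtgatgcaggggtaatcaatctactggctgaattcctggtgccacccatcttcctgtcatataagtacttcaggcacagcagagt
Cyp3a41b: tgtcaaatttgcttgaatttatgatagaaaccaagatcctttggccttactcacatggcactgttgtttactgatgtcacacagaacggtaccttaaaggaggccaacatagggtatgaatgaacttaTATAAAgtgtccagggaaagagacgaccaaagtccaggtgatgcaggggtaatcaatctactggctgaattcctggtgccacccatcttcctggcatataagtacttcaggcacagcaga
Cyp2b9 (chr7:26173159-26173349, plus strand) and Cyp2b13 (chr7:26061245-26061387, plus strand) had the most similar windows of all pairs within a cluster but were covered to different extents.
Cyp2b9: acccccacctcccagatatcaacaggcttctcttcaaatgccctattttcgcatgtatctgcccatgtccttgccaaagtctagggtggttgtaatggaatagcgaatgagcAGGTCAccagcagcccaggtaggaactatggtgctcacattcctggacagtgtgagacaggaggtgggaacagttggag
Cyp2b13: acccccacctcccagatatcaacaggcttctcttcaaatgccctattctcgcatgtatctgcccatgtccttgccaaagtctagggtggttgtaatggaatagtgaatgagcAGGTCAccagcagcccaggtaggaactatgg
Cyp26a1 (chr19:37697558-37697737, plus strand) is shown as a GC-rich window of a gene that had peaks only at E13.5.
Cyp26a1: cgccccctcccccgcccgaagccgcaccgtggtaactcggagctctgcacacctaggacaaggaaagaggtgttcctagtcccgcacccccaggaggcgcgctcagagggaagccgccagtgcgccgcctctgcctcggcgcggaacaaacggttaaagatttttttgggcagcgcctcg

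Coverage was measured over each gene body with 5 kb on both sides, and overlapping stretches were counted once in sums. Peaks covered 19.9% of the members' 3279 kb in het and 22.6% in KO at E13.5, 24.4% and 24.0% at E16.5, 26.7% and 29.1% at P0, and 21.4% and 23.5% at P3 (values in pairs are het, then KO, here and below). Over all autosomal protein-coding genes the shares were 3.59% and 4.26%, 6.07% and 5.58%, 6.57% and 7.65%, and 6.87% and 8.07%. The members were therefore covered several times more than genes in general in each list. Genes with symbols starting with Olfr (olfactory receptors) had 17.5% to 30.1% and those starting with Vmn (vomeronasal receptors) 21.3% to 30.3%, a range that overlapped that of the members, while Zfp genes (zinc fingers) had 4.64% to 7.07%.

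The coverage belonged mainly to the clustered members. They were covered to between 23.0% and 33.7% in the 8 lists, and the 20 members outside clusters to between 3.26% and 8.60%, which overlapped the range of all genes. Averaged over the 8 lists, the median member was covered to 9.38% and the median gene to 1.99%. Coverage above 50% was seen in 9 of 96 members and in 2.47% of all genes. The members did not behave uniformly even within a cluster, as the heat map of all members shows.

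**Figure D1:**
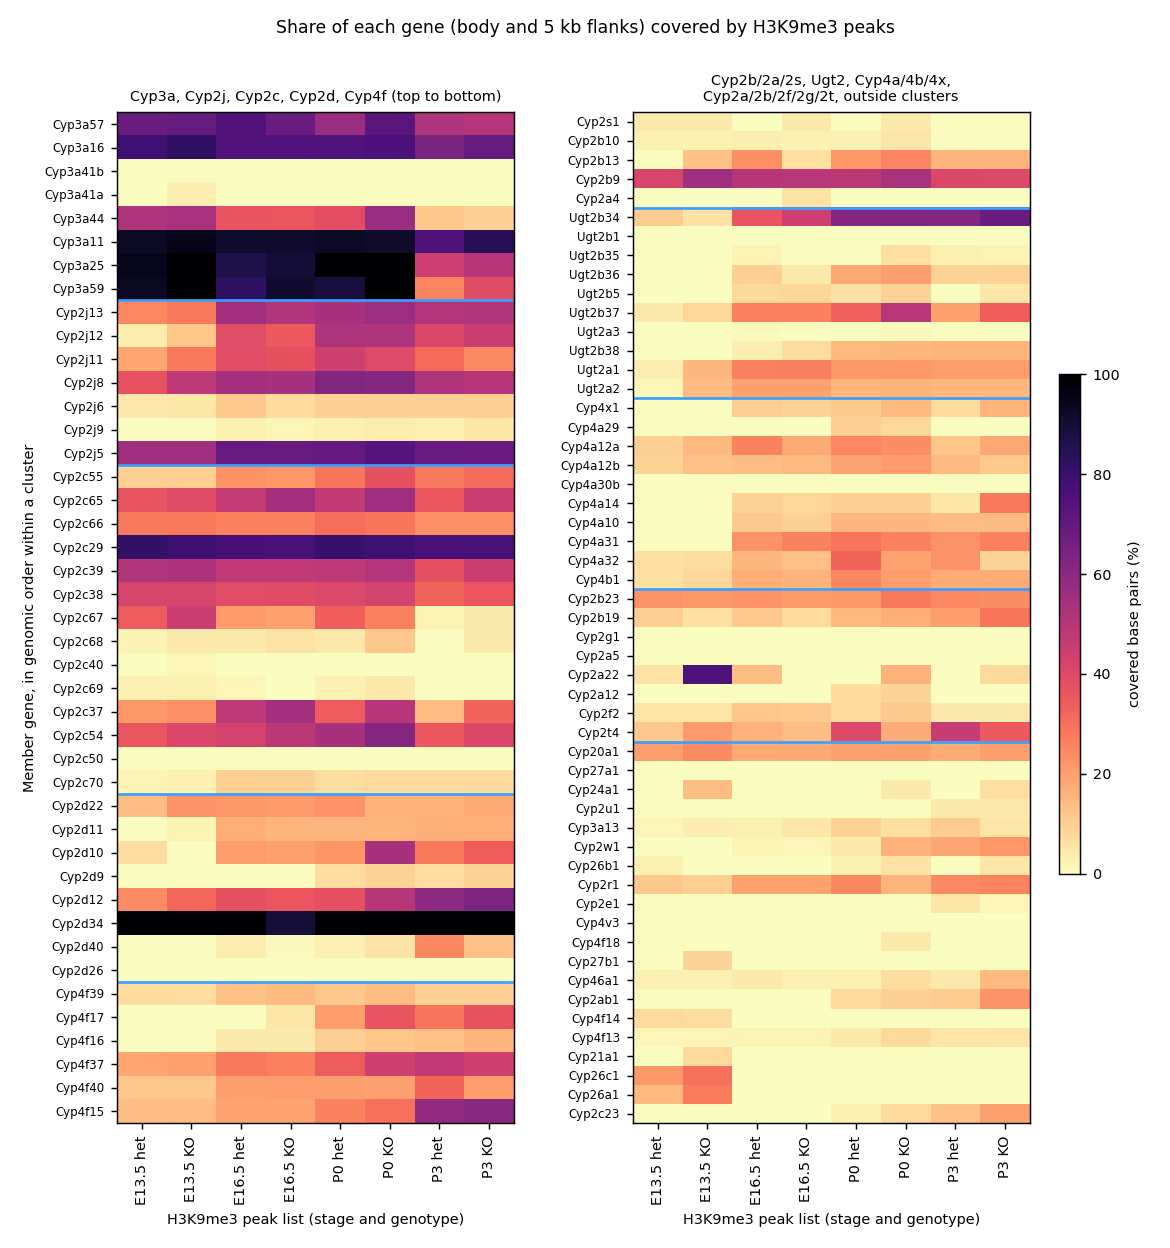
Share of each member (gene body with 5 kb on both sides) covered by H3K9me3 peaks, in percent, as a colour from 0 to 100; rows are the 96 members by cluster, in genomic order and separated by blue lines, and columns are the 8 lists. Cyp3a11, Cyp3a25, Cyp2c29 and Cyp2d34 are dark in most columns, while Cyp3a41b, Cyp2c50, Cyp2d26, Cyp2a5 and Ugt2b1 are blank in 8 of 8.

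The number of members with a peak (at least 1 bp covered) was 57 of 96 in the E13.5 het list, against 39.8% of all genes, and 62 in the E13.5 KO list, against 44.6%. It was 67 and 66 at E16.5, where 44.3% and 43.2% of all genes had a peak. At P0 it was 71 and 77 beside 48.1% and 53.3% of all genes, and at P3 68 and 72 beside 50.7% and 53.2%. The lowest of these counts is a share of 59.4% (95% Wilson interval 49.4 to 68.7%) and the highest 80.2% (71.1 to 86.9%), intervals that cover counting error only and treat neighbouring genes as independent. A peak was present in 8 of 8 lists in 47 members (49.0%) and in 27.0% of all genes. None of the 8 lists had a peak in 9 members, or 9.38%, compared with 29.8% of all genes: Cyp27a1, Cyp4v3, Cyp2d26, Cyp2c50, Cyp4a30b, Ugt2b1, Cyp3a41b, Cyp2g1 and Cyp2a5.

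The Cyp3a cluster on chromosome 5 (8 members, positions 145340149 to 146119978 with flanks) was the most heavily covered of the 9. CYP3A enzymes are broad-range oxidases of drugs and steroids, and Cyp3a11 is the main form of adult mouse liver. Peaks covered 62.1% and 65.3% of the cluster's gene intervals at E13.5, 58.1% and 58.7% at E16.5, 58.1% and 64.6% at P0, and 35.1% and 38.9% at P3. The DNA between its genes averaged 45.0% over the lists, and the 30 other protein-coding genes within 500 kb averaged 7.74%. Cyp3a25 was covered for 40.04 and 42.5 kb of its 42.5 kb interval at E13.5, 36.8 and 38.3 kb (E16.5), 42.5 and 42.5 kb (P0), and 18.8 and 21.2 kb (P3). Cyp3a59, whose interval is 45.8 kb, had 42.9 and 45.8 kb, 37.7 and 41.7 kb, 40.4 and 45.8 kb, and then 11.7 and 17.9 kb at the same stages. In both genes the 2 P3 lists lay below all 6 earlier lists.

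Cyp3a44 had 21.7 and 22.2 kb (E13.5), 15.3 and 15.1 kb (E16.5), 16.2 and 23.8 kb (P0), and 4.81 and 3.95 kb (P3). The P3 values were again the lowest in both genotypes. The remaining 3 covered genes of the array differed less between lists: Cyp3a11 kept between 26.6 and 33.5 kb of 35.2 kb, Cyp3a16 between 27.7 and 35.7 kb of 43.4 kb, and Cyp3a57 between 28.0 and 41.4 kb of 55.8 kb. Cyp3a41b, placed between Cyp3a16 and Cyp3a44, had 0 kb in 8 of 8 lists, and its neighbour Cyp3a41a had 1.24 kb in the E13.5 KO list and 0 kb in the other 7. The longest peak of the cluster was shorter at P3 than at any earlier stage. It measured 43.2 kb in the E13.5 het list (chr5:146072601-146115849, over Cyp3a59) and 51.9 kb in the E13.5 KO list (chr5:146072534-146124418, the same place). At P3 the longest was 23.7 kb in het and 28.4 kb in KO. The number of peaks in the cluster was 51 in the P0 het list and 66 in the P3 het list, while their median length was 4555 bp at P0 and 2334 bp at P3, so the P3 lists held more and shorter peaks. A mark lost from part of the cells and a mark weakened in each cell cannot be told apart in lists made from many cells.

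**Figure D2:**
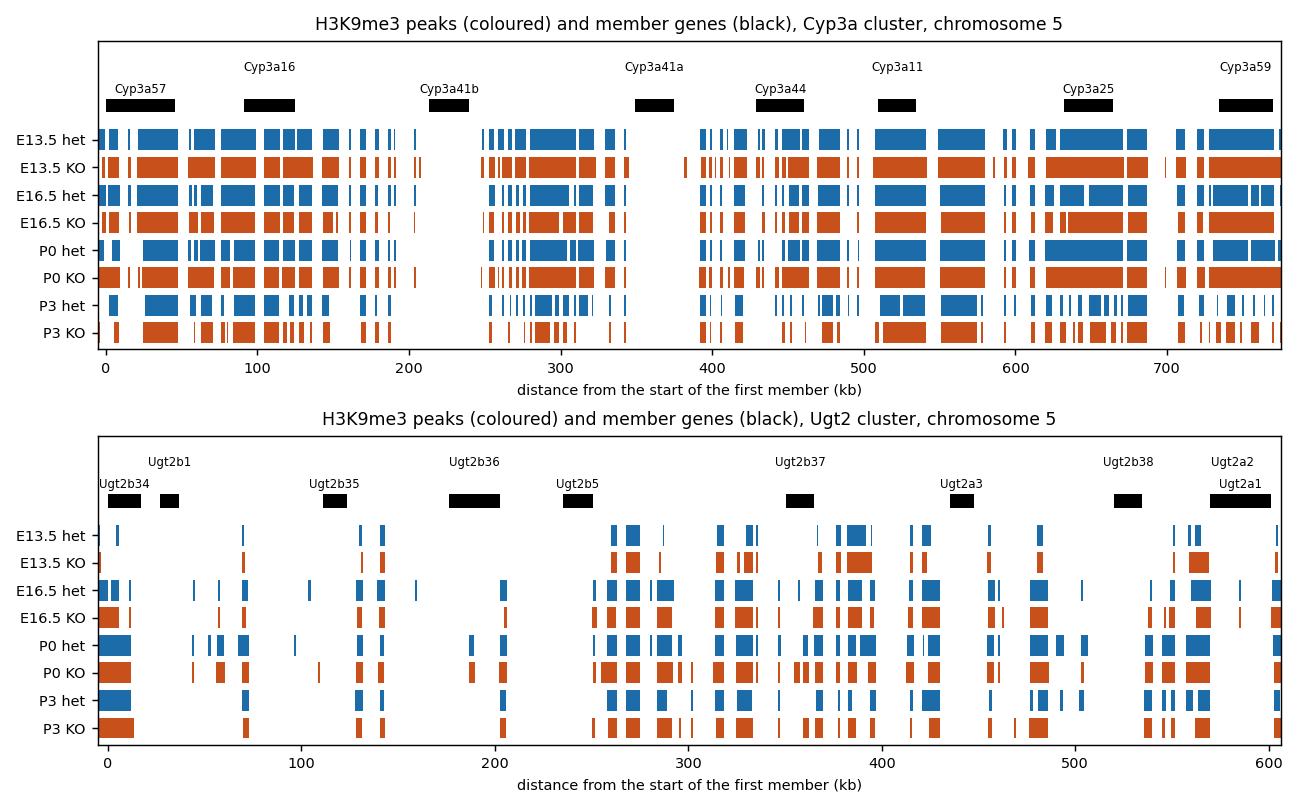
Position of H3K9me3 peaks (blue het, orange KO) in the 8 lists along the Cyp3a cluster (top) and the Ugt2 cluster (bottom), with member genes in black; the x axis is the distance in kb from the start of the first member. The blocks over Cyp3a25 and Cyp3a59 are long through P0 and broken up at P3, the stretches at Cyp3a41b and Cyp3a41a stay empty but for a peak in the E13.5 KO list, and the block at Ugt2b34 is short at E13.5 and long from P0.

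Coverage of the Cyp2c cluster on chromosome 19 (14 members) differed less between stages. CYP2C enzymes oxidize drugs and make epoxides of arachidonic acid. The cluster was covered to 29.8% and 31.5% at E13.5, 30.6% and 31.3% at E16.5, 32.7% and 35.3% at P0, and 24.0% and 28.0% at P3, with 4.86% as the mean of its 9 neighbours. Cyp2c29 was covered for 40.9 to 43.7 kb of 53.7 kb over the 8 lists, so its coverage differed little between them. Cyp2c39 has an interval of 232 kb that encloses Cyp2c38, so the coverage of these genes is partly the same DNA. It had 118 and 121 kb (E13.5) and 87.1 and 103 kb (P3). Cyp2c67 had 17.3 and 22.4 kb (E13.5), 10.5 and 9.98 kb (E16.5), 17.0 and 13.2 kb (P0), and 1.00 and 2.002 kb (P3), again lowest at P3. Cyp2c37 was covered for 14.4 and 16.2 kb (E16.5), 10.3 and 14.9 kb (P0), and 4.09 and 9.62 kb (P3). Cyp2c50 had no peak, and Cyp2c40 had 1.00 kb in the E13.5 KO list alone. Of the 335 kb of this cluster covered in any list, 170 kb (50.8%) was covered in all 8, the highest such share of the 9 clusters.

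The Cyp2j cluster on chromosome 4 (7 members), encoding epoxygenases of arachidonic acid, was covered to 22.1% and 27.5% at E13.5, 40.8% and 38.7% at E16.5, 44.6% and 44.4% at P0, and 37.97% and 37.3% at P3. Its 3 neighbours averaged 1.41%. Cyp2j12 had 1.92 and 6.21 kb (E13.5), 20.2 and 18.1 kb (E16.5), 26.8 and 26.7 kb (P0), and 21.1 and 23.4 kb (P3). Cyp2j13 had 11.2 and 12.4 kb (E13.5) and 22.7 to 25.2 kb in the other 6 lists. In both genes the E13.5 lists lay below all later lists. Cyp2j8 was covered for 27.2 to 46.0 kb of 73.4 kb and Cyp2j5 for 25.8 to 34.4 kb of 46.7 kb. Cyp2j6 and Cyp2j9, which lie between Cyp2j8 and Cyp2j5, reached no more than 6.47 and 1.70 kb.

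Coverage was also higher after E13.5 in the Ugt2 and Cyp4a clusters, which at E13.5 were near the level of all genes. The Ugt2 cluster on chromosome 5 (10 members) was covered to 2.15% and 4.04% at E13.5, 14.1% and 14.2% at E16.5, 18.7% and 21.7% at P0, and 15.6% and 18.2% at P3. The first gene of the array, Ugt2b34, accounted for much of it, with 2.81 and 1.56 kb (E13.5), 9.90 and 12 kb (E16.5), 16.9 and 17.1 kb (P0), and 16.8 and 18.5 kb (P3) of a 27.2 kb interval. Ugt2a1 and Ugt2a2, olfactory forms that share most of their DNA, had 1.41 and 6.21 kb and 0.410 and 4.59 kb (E13.5) and had between 4.87 and 11.1 kb later. Most of this lay in the flanks, since the body of Ugt2a1 had no more than 1.41 kb in any list. Ugt2b1 had no peak, and Ugt2a3 had no more than 0.147 kb in any list. The 19 neighbours of the Ugt2 cluster averaged 9.16%, compared with 13.6% for its members. In the DNA between its genes the mean was 23.2%.

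The Cyp4a/Cyp4b/Cyp4x cluster on chromosome 4 (10 members) holds omega-hydroxylases of fatty acids, several of them targets of the receptor PPAR alpha in liver. It was covered to 3.98% and 5.35% at E13.5, 13.2% and 11.9% at E16.5, 17.4% and 16.1% at P0, and 11.4% and 13.8% at P3. Cyp4a12a had 4.30 and 6.36 kb (E13.5), 11.4 and 7.80 kb (E16.5), 10.96 and 10.3 kb (P0), and 5.20 and 7.87 kb (P3). Its near neighbour Cyp4a12b varied less, from 3.49 to 7.79 kb. Cyp4a10, Cyp4a14 and Cyp4a31 had 0 kb in both E13.5 lists and a peak in each of the 6 later ones, with up to 7.34 kb in Cyp4a31. Much of this lay in the flanks. In gene bodies alone, Cyp4a10 had no more than 0.644 kb and Cyp4a31 no more than 3.22 kb. The body of Cyp4a14 had 1.65 kb in the P3 KO list and 0 kb in each other list. Of the DNA covered in any list, 6.92 of 67.4 kb in this cluster and 2.75 of 58.9 kb in the Ugt2 cluster were covered in all 8 lists.

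Coverage of the Cyp4f and Cyp2d clusters was highest at P3. The Cyp4f cluster on chromosome 17 (6 members), with genes for omega-hydroxylases of leukotrienes and fatty acids, was covered to 8.30% and 8.27% at E13.5, 13.6% and 14.8% at E16.5, 18.9% and 24.4% at P0, and 28.6% and 28.5% at P3. Cyp4f15 had 3.73 and 3.81 kb, 5.25 and 5.21 kb, 7.19 and 8.28 kb, and 16.2 and 16.7 kb at the same stages, so the later stage was above the earlier at each step in both genotypes. Cyp4f17 had 0 kb in the first 3 lists, 1.72 kb in the E16.5 KO list, 6.85 and 12.4 kb (P0), and 9.86 and 12.6 kb (P3). Cyp4f40 had 3.32 and 3.22 kb (E13.5), 5.64 and 5.75 kb (E16.5), 5.59 and 5.42 kb (P0), and 9.13 and 5.76 kb (P3), where het stood apart. In the gene body alone the P3 values were 5.4 and 5.76 kb. The DNA between the Cyp4f genes averaged 45.8%, well above the 18.2% of the genes. Cyp4f14 and Cyp4f13 lie on the same chromosome just beyond the 200 kb limit and were counted outside clusters. Their means were 1.81% and 3.79%. With chaining at 500 kb the mean of the Cyp4f cluster was 14.8%.

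In the Cyp2d cluster on chromosome 15 (8 members; CYP2D enzymes oxidize many basic drugs), coverage was 18.5% and 20.1% at E13.5, 24.7% and 22.6% at E16.5, 25.7% and 30.6% at P0, and 30.9% and 31.0% at P3. Its 31 neighbours averaged 2.27%. Cyp2d34 was covered over its whole 15.0 kb interval in 7 lists and for 13.4 kb in the E16.5 KO list. Cyp2d12 had 3.42 and 4.55 kb (E13.5), 5.35 and 5.22 kb (E16.5), 5.43 and 7.14 kb (P0), and 8.64 and 9.11 kb (P3). Cyp2d26, at the end of the array, had 0 kb in 8 of 8 lists.

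On chromosome 7 there were 2 clusters. The Cyp2b/Cyp2a/Cyp2s cluster (5 members) ranged from 12.6% to 22.8% and the Cyp2a/Cyp2b/Cyp2f/Cyp2g/Cyp2t cluster (8 members) from 7.57% to 15.2%, with means of 11.7% and 9.86% for their neighbours. Cyp2b9 was covered for 19.8 and 26.4 kb (E13.5), 23.6 and 23.4 kb (E16.5), 22.9 and 25.0 kb (P0), and 19.3 and 19.1 kb (P3). Its near copy Cyp2b13 had 0 and 5.61 kb, 10.4 and 2.81 kb, 9.74 and 11.4 kb, and 6.94 and 7.15 kb. Cyp2b13 was below Cyp2b9 in each list. Cyp2b10, the form induced in liver through the receptor CAR, had between 0 and 2.002 kb. Cyp2b23 had 6.5 to 8.77 kb, nearly all of it beside the gene: the gene body alone had 1.001 kb in the P0 KO and P3 het lists and 0 kb in the other 6. Cyp2a5 and Cyp2g1 had none.

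**Figure D3:**
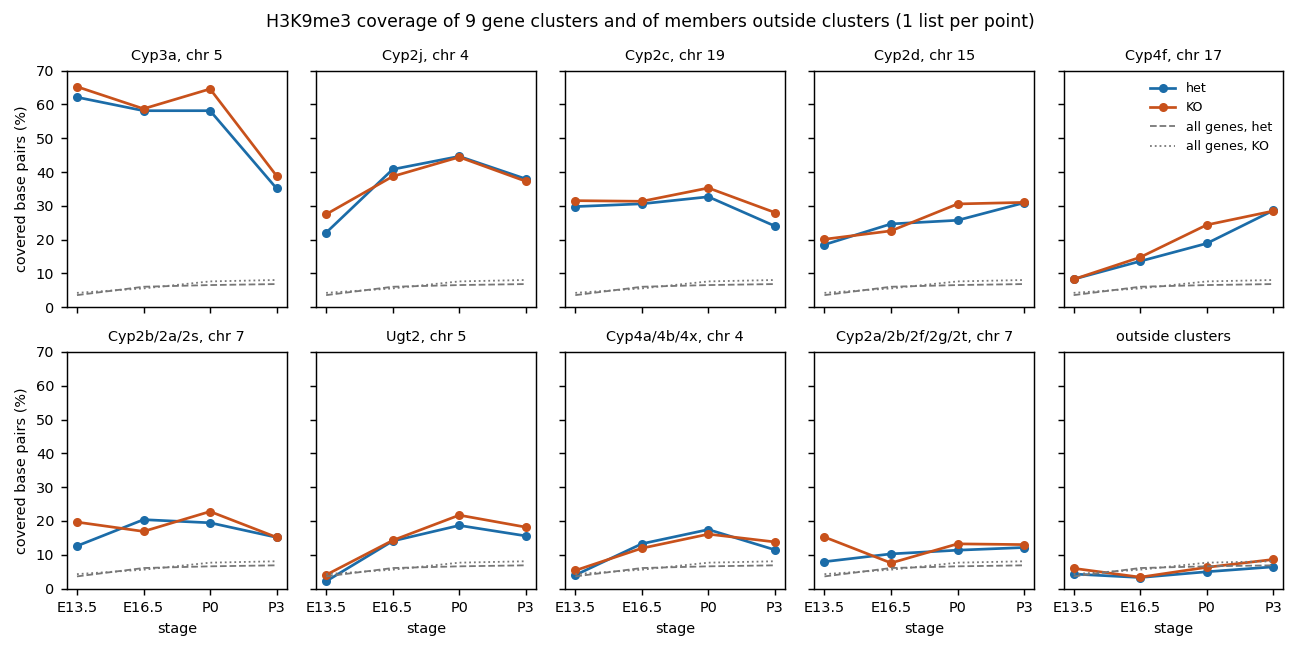
Percent of base pairs covered by H3K9me3 peaks (y axis) at each stage (x axis) in the 9 clusters and in the members outside clusters, with 1 point per list (blue het, orange KO) and all autosomal protein-coding genes in grey. The Cyp3a cluster is at 58.1% and 64.6% at P0 and at 35.1% and 38.9% at P3, the Ugt2 cluster is at 2.15% and 4.04% at E13.5 and at 18.7% and 21.7% at P0, and the Cyp4f cluster is highest at P3 with 28.6% and 28.5%.

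Outside clusters 18 of the 20 members had a peak in at least 1 list, but most of each interval was free of peaks. Cyp20a1, a P450 of unknown substrate, had 9.56 to 13.45 kb of 54.8 kb, and Cyp2r1, a vitamin D hydroxylase, had 2.33 to 5.90 kb. Cyp3a13, a CYP3A gene that lies apart from the array, had 0.696 to 4.37 kb, or a mean of 5.46%, compared with 55.1% for the array. The retinoic acid hydroxylase genes Cyp26a1 and Cyp26c1, which lie side by side on chromosome 19, had peaks only at E13.5: 2.002 and 3.73 kb in Cyp26a1 and 3.89 and 5.42 kb in Cyp26c1. Cyp26b1, whose enzyme removes retinoic acid in the fetal testis, had at most 1.86 kb. Cyp2c23, apart from the other Cyp2c genes, had 0 kb at both embryonic stages, 1.00 and 2.63 kb (P0) and 4.32 and 6.78 kb (P3). Its gene body had no more than 1.25 kb in any list.

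Between stages, the members' summed coverage in het was 1.23 times as high at E16.5 as at E13.5, 1.09 times as high at P0 as at E16.5, and 0.802 times as high at P3 as at P0. In KO the same ratios were 1.06, 1.21 and 0.810. For all genes they were 1.69, 1.08 and 1.05 in het and 1.31, 1.37 and 1.05 in KO. At the last step summed coverage was therefore lower in the members and slightly higher in genes in general. Other tandem families were lower at this step too, with ratios of 0.842 in het and 0.877 in KO for Olfr genes and 0.730 and 0.803 for Vmn genes. The Cyp3a ratios at the last step were 0.604 in het and 0.602 in KO, the Cyp2c ratios 0.735 and 0.794, and the Cyp4f ratios 1.52 and 1.17. Over 6 alternative settings the last ratio of all members stayed between 0.779 and 0.804 in het and between 0.795 and 0.808 in KO.

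Single members were counted as different between lists where covered length differed by at least 1 kb and at least 1.5 times. From E13.5 to E16.5, 33 members were higher and 6 lower at the later stage in het, and 24.4% and 8.35% of all genes were. In KO, 26 were higher and 13 lower, beside 18.4% and 13.3% of all genes. The 33 members are 34.4% of 96 (95% Wilson interval 25.6 to 44.3%). They include 5 of the 7 Cyp2j genes, 7 of the 10 genes of the Cyp4a/Cyp4b/Cyp4x cluster and 6 of the 10 Ugt2 genes. A gene could be higher at E16.5 only if it had a peak there. In het 69.8% of members and 44.3% of all genes did, so these shares are not like for like. From E16.5 to P0, 15 members were higher and 2 lower in het, beside 16.1% and 10.8% of all genes, and 30 were higher and 1 lower in KO, beside 26.1% and 5.86%. From P0 to P3, 8 were higher and 15 lower in het, beside 16.7% and 9.73% of all genes. In KO at this step 9 were higher and 22 lower, beside 14.7% and 10.7%. The lower members are 15.6% (9.70 to 24.2%) in het and 22.9% (15.6 to 32.3%) in KO, with neighbouring genes treated as independent. A gene could be lower at P3 only if it had a peak at P0. In KO 77 members (80.2%) did, beside 53.3% of all genes, and in het 71 (74.0%) beside 48.1%. The shares of lower members and genes are therefore not like for like. Higher calls at each step need a peak at the later stage, which a larger share of members than of all genes had. The shares of higher calls are therefore not like for like either. Among the members lower at P3 in both genotypes were Cyp3a25, Cyp3a44 and Cyp3a59 of the Cyp3a array and Cyp2c37, Cyp2c67, Cyp2c68 and Cyp2c69 of the Cyp2c array.

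Between genotypes, the members' summed coverage in KO was, in stage order, 1.14, 0.983, 1.09 and 1.10 times that in het. The ratios for all genes were 1.19, 0.919, 1.17 and 1.17, on the same side of 1 at each stage. The KO list held more peaks than the het list at the same 3 stages and fewer at E16.5. The 8 lists held between 52630 and 93523 peaks covering 166 to 340 Mb. Sequencing depth and calling settings are not given in the sources used here, and their part in the genotype ratios was not tested.

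At E13.5, 3 members were higher in het and 15 in KO, where 3.81% and 13.3% of all genes were. At E16.5, 6 were higher in het and 3 in KO, beside 5.18% and 2.78%. At P0, 3 were higher in het and 14 in KO, beside 4.8% and 16.4%, and at P3, 4 and 15, beside 5.97% and 14.3%. The members' shares ran from 3.12% to 6.25% for het and from 3.12% to 15.6% for KO, and each background share lay inside the 95% Wilson interval of the members' share. With each list reduced to the same number of longest peaks, 8 members were higher in KO at P0 and 8 at P3, beside 9.86% and 10.1% of all genes. By this rule 51 members (53.1%) differed between genotypes at no stage and 31 (32.3%) at a single stage, beside 55.5% and 27.1% of all genes. A gene without a peak in any list cannot be called, which holds for 9.38% of the members and 29.8% of all genes. The shares of calls here and below are therefore not like for like.

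Repeated differences were rare. Cyp2c68, Cyp24a1 and Cyp2a22 were higher in KO at 3 of 4 stages, which is 3.12% of the members beside 1.55% of all genes. Cyp2c68 had 1.32 and 2.51 kb (E13.5), 2.66 and 3.53 kb (E16.5), 2.87 and 7.17 kb (P0), and 0 and 2.71 kb (P3), so KO was above het at 4 of 4 stages. Cyp24a1, the vitamin D degrading hydroxylase, had 0 kb in the 4 het lists and 3.25, 0, 1.00 and 1.60 kb in the KO lists in stage order. The gene body of Cyp24a1 had 2.28 kb in the E13.5 KO list and 0 kb in each other list, so its P0 and P3 peaks lay in the flanks. Cyp2a22 had 1.00 and 13.4 kb (E13.5), 2.39 and 0 kb (E16.5), 0 and 2.89 kb (P0), and 0 and 1.34 kb (P3). Its 12.4 kb difference at E13.5 was the largest of any member at that stage. Cyp4f17 was higher in KO at E16.5 and P0, and Ugt2b37 at E13.5 (1.00 and 2.07 kb) and P3 (4.81 and 8.17 kb). In the gene body alone Ugt2b37 had 0 and 0 kb at E13.5 and 0 and 3.16 kb at P3.

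The same direction was called at both P0 and P3 in 6 members. Cyp46a1, Cyp2c68, Cyp2c23, Cyp24a1 and Cyp2a22 were higher in KO at both stages, and Cyp4a32 was higher in het, with 10.3 and 5.95 kb (P0) and 7.10 and 2.83 kb (P3). In gene bodies alone, Cyp24a1 had 0 kb at both stages in both genotypes. The body of Cyp2c23 had 1.00 and 1.25 kb (P0) and 0 and 1.00 kb (P3). Of all genes, 5.69% were higher in KO at both stages and 1.98% higher in het, so the members' shares of 5.21% and 1.04% were near the background. Cyp46a1, a cholesterol hydroxylase of neurons, had 1.00 and 2.81 kb (P0) and 1.77 and 5.34 kb (P3). Members higher in het at 1 stage included Cyp2r1 at P0 (5.71 and 3.55 kb), Cyp2t4 at P0 (5.95 and 2.60 kb), and Cyp2d40 (3.58 and 1.79 kb), Cyp4f40 (9.13 and 5.76 kb) and Cyp3a13 (4.37 and 2.29 kb) at P3. In the gene bodies alone, Cyp2d40 had 0 kb in 8 of 8 lists and Cyp3a13 had 2.002 kb in P3 het and 0 kb in the other 7. At P0 the body of Cyp2r1 had 1.19 and 0.678 kb and that of Cyp2t4 had 0.947 and 0.982 kb. Most of the difference in both genes therefore lay in the flanks. The largest difference at P3 in kb was in Cyp2c39, with 87.1 kb in het and 103 kb in KO, which is below 1.5 times.

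**Figure D4:**
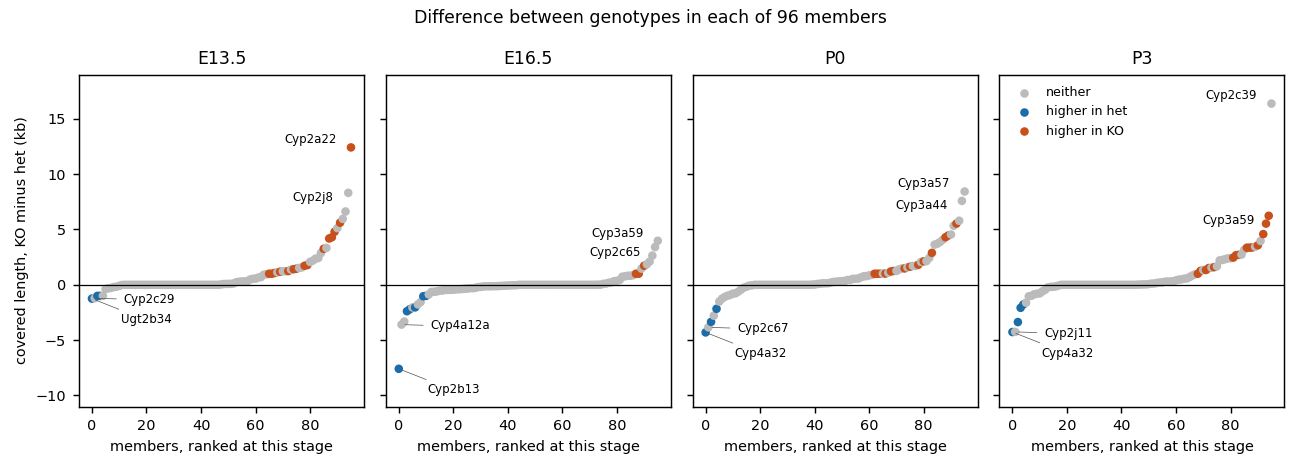
Covered length in KO minus het, in kb, for each of the 96 members at 4 stages, ranked within a stage; blue marks members higher in het, orange members higher in KO, and grey members that differ by less than 1 kb or less than 1.5 times. The 2 lowest and 2 highest members of each stage are named: most points lie near 0, Cyp2a22 stands out at E13.5 with 12.4 kb and Cyp2c39 at P3.

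Where the genotypes had peaks, they had them mostly in the same places. The Jaccard index, the base pairs covered in both lists divided by those covered in either, was 0.802, 0.872, 0.828 and 0.769 in the members in stage order. In all genes it was 0.649, 0.770, 0.655 and 0.631. Of the 1161 kb of members covered in any list, 420 kb or 36.2% was covered in all 8, compared with 14.3% for all genes. The index also depends on peak length, which was not taken into account.

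Start sites were examined in the 80 members with an entry in the promoter table. The start lay inside a peak in 10 and 13 members at E13.5, 14 and 14 at E16.5, 17 and 19 at P0, and 11 and 17 at P3. This is 12.5% to 23.8% of 80, compared with 4.33% to 5.81% of 16457 genes. In 5 members, Cyp3a11, Cyp2c29, Cyp2c38, Cyp2c39 and Cyp2t4, a start lay in a peak in 8 of 8 lists, and in 54 it did so in none. The starts of Cyp3a25 and Cyp3a59 were in a peak in 7 of 8 lists, all but P3 het. The start of Cyp26a1 was in a peak in the E13.5 KO list only.

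The members' promoter windows of 300 bases (250 before the start and 50 after) were poorer in CpG than those of other genes. The median window had a GC content of 47.7% and 2 CpG dinucleotides, compared with 57% and 14 for all 20085 windows. TATAAA occurred in 35.6% of the members' 87 windows and in 12.7% of all windows, and AGGTCA in 28.7% and 14.7%. Among windows of members whose start was in a peak in no list, AGGTCA occurred in 10 of 59 (16.9%). It occurred in 11 of 22 (50%) with 1 to 7 lists and in 4 of 6 with all 8. Some of these windows are near-identical copies, so the counts are not independent. A link between motif and peak was not tested. All motif counts here are matches of letters and not binding sites. The window of Cyp26a1, printed above, held 26 CpG and matched neither motif.

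Members with similar windows had similar coverage in some pairs and not in others. Cyp2b9 and Cyp2b13 were 99.3% identical over 300 bases and were covered to a mean of 47.4% and 15.1%. Cyp3a41a and Cyp3a41b were 98.3% identical and had 0.430% and 0% of their intervals covered, whereas Cyp3a16 and Cyp3a44, which were 92.7% to 93.7% identical to them, had 74.1% and 36.7%. Cyp3a25 and Cyp3a59 were 96.3% identical and had 83.2% and 77.5%, and Cyp2c68 and Cyp2c69 were 92.3% identical and had 4.57% and 1.76%. The 13 members whose window was at least 90% identical to another of their cluster had a median coverage of 25.1% (0 to 83.2%). The other 51 in clusters with a window had 14.3% (0 to 89.4%). Most of the 13 belong to the Cyp3a array, the most covered cluster, so the groups differ in cluster as well as in identity. How reads that fit several copies were placed is not given in the sources used here, so values of near-identical copies are uncertain, the zeros included, and its part was not tested.

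Other genes of drug metabolism were set beside the members as lists. Of 33 genes for other oxidases and hydrolases, 47 for conjugating enzymes, 10 for regulators and 11 for transporters, the intervals were covered to a mean of 8.80%, 13.6%, 2.75% and 12.2% over the 8 lists, compared with 24.0% for the members and 6.08% for all genes. The conjugating enzymes included Sult2a7 and Sult2a8, tandem sulfotransferase genes on chromosome 7, with means of 81.9% and 70.9%. Slco1a6, an organic anion transporter gene of a tandem array, had 42.1%. Among the regulators, which include the receptors that induce many of the members in liver, Nr1i2 (the pregnane X receptor) was highest with 8.15%. Under the same call rule the shares of all genes are those given above for each stage, for example 4.8% higher in het and 16.4% in KO at P0 and 5.97% and 14.3% at P3. At P0, 5 genes of the first list were higher in het and 9 in KO, 1 and 5 conjugating enzymes, 1 and 3 regulators, and 1 and 1 transporters. At P3 the counts were 6 and 4, 5 and 3, 1 and 3, and 0 and 3. At E13.5 they were 2 and 6, 2 and 5, 0 and 1, and 0 and 0, and at E16.5 4 and 1, 2 and 1, 0 and 0, and 1 and 0.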

How the data were processed

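The authors deposited 8 peak lists, 1 per H3K9me3 group, as chromosome, start and end with no score. Per the submitters' processing notes the build was mm10 and the tools were bcl2fastq 2.20, cutadapt 1.18, Bowtie2 2.3.4.1, deepTools 3.5.0 and HOMER 4.10. The step each tool served, the calling threshold, the use of H3 libraries, read depth and the merging of replicates are not given in the sources used here. Peaks of 1001 bp were the most frequent in each list. Gene positions and promoter windows came from RefSeq tables of GRCm38.p6, the assembly of mm10, and strand was known where a gene had a window.

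Covered base pairs were computed with Python 3.11.15, numpy 2.4.6 and pandas 2.3.3, and window identity with Biopython 1.88. Coverage and calls were tested on simulated peaks. Members were called different at 1000 bp and 1.5 times. No test was run, since a single list per group carries no replicate error.

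The members and lists were chosen with earlier results of these data known. Named members were those with the most covered length in each cluster and among all members, those called at most stages per direction, the largest gains and losses per step, and the most covered outside clusters. Other members named were chosen after their values were seen.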

Additional observations from a re-analysis of the deposited data

Results flagged for a closer look

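In 6 members the genotypes differed in opposite directions at different stages. The differences between the stages were not tested, since each group had 1 list. Covered length in KO minus het was -7.59 kb at E16.5 and 5.61 kb at E13.5 in Cyp2b13. In Cyp2a22 it was -2.39 kb at E16.5, with 12.4 kb (E13.5), 2.89 kb (P0) and 1.34 kb (P3) at the other stages. In Cyp2t4 it was -3.35 kb at P0 and 1.41 kb at E13.5. In Cyp2d10 it was -1.001 kb at E13.5 and 4.45 kb at P0. The negative differences in Cyp26b1 at E13.5 and in Cyp2c69 at E16.5 were -1.001 kb each, the most common peak length, and the positive ones were 1.51 kb at P3 and 1.015 kb at P0.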

How the results depend on the processing

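Of 261 values recomputed under an alternative, 236 stayed within the limits set for them and 25 moved. Only the ratios of summed coverage have a direction, and each stayed on the same side of 1. Counts and mean coverage could not change direction. For ratios and mean coverage the limits were 95% intervals that treat each kb as independent. Limits for counts were wide: 57 members with a peak in the E13.5 het list, and 42 without flanks, were within them. With 10 kb flanks, 6 members were higher in KO at E16.5 and 22 at P0. With only peaks longer than the most common length, 1 was higher in het at E13.5. With the longer 50% of each list, 1 was higher in het at E13.5 and 1 in KO at E16.5. With equal peak numbers, 5 were higher in het at E13.5, 8 in KO at P0 and 8 in KO at P3. With a difference of 2000 bp and no fold, 0 were higher in het at E13.5 and 5 at P0. Over whole spans the mean coverage was 42.3% for Cyp2j, 16.2% for Cyp4a/Cyp4b/Cyp4x, 19.4% for Ugt2, 49.4% for Cyp3a, 19.9% for Cyp2a/Cyp2b/Cyp2f/Cyp2g/Cyp2t and 26.1% for Cyp4f, since spans include the DNA between genes. With chaining at 100 kb it was 26.6% for Cyp2b/Cyp2a/Cyp2s, with fewer members. At that distance 2 of 9 clusters gave no value because no chain held most of their members. Only 2 of 9 clusters kept exactly the same members at 100 kb, and 6 of 9 did at 500 kb. Mean coverage of 8 named members also moved. In gene bodies alone it was 1.14% for Ugt2a1, 1.1802% for Cyp2b23, 0.766% for Cyp3a13, 0% for Cyp2d40 and 11.9% for Ugt2b37, and with the longer 50% of each list 0.619% for Cyp2c68, 1.43% for Cyp46a1 and 1.20% for Cyp2c23. The cause of the other shifts was not tested. No paired analysis was possible because each group had 1 list that names no replicate, so no replicate numbers could be paired. A fit with stages in place of replicates was not run. Depth is unknown, so a gene without a peak is only one where none was called.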

Other observations

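The RefSeq table lists 34 pseudogenes whose symbols start with the same prefixes. They were covered more than the bodies of the 96 members in each list. Most of these pseudogenes lie within the spans of the clusters, whereas 20 of the members lie outside clusters. The sets were not matched for this. Over pseudogene bodies without flanks, peaks covered 24.4% and 30.3% in het and KO at E13.5, 34.7% and 32.3% at E16.5, 36.6% and 36.3% at P0, and 28.0% and 29.2% at P3. Over the bodies of the 96 members the shares were 22.0% and 24.5%, 25.6% and 25.5%, 28.0% and 30.6%, and 22.0% and 24.6%. Here each body was counted in full, also where bodies overlap. Cyp3a63-ps, which lies between Cyp3a41b and Cyp3a41a on chromosome 5, was covered to a mean of 89.0% over the 8 lists, while both of those genes had almost no peak. Cyp2c71-ps on chromosome 19 had 78.2% and Cyp2d34-ps on chromosome 15 had 95.9%. No peak was found in 8 of the 34 pseudogenes in any list.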
